A study of Bos taurus with 11 samples.

Results

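Leukocyte integrins and their vascular partners form the molecular contacts by which white blood cells leave the blood. The set described here was listed as 9 genes: the integrin chains ITGB2, ITGAL, ITGAM, ITGAX and ITGA4 on the leukocyte side, and SELE, SELP, ICAM1 and VCAM1 on the endothelial side. A gene was taken as measured where at least 1 probe set of the array was annotated with that symbol and no other, and the probe set of highest mean signal across the arrays stood for it. This gave 8 genes with 10 probe sets, out of 9155 genes named in the same way. There were 4 genes on each side, and ITGAX is not analysed here.

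A leukocyte is first slowed by selectins, then held fast by activated integrins, and finally crosses the vessel wall. P-selectin (SELP) is stored in endothelial cells and platelets and E-selectin (SELE) is made by endothelium exposed to inflammatory cytokines, and both bind sugar-bearing ligands on leukocytes. The integrin of ITGAL and ITGB2, known as LFA-1, and that of ITGAM and ITGB2, known as Mac-1, bind ICAM1, whereas the chain ITGA4 pairs with other beta chains and binds VCAM1. In the uterus after calving this traffic supplies the neutrophils and other leukocytes that clear bacteria and tissue debris. ICAM1 and VCAM1 can also be made by stromal and other cells, so their RNA in whole tissue does not come from endothelium alone.

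Endometrium, the inner lining of the uterus, had been taken at slaughter 14 ± 0.4 days after calving from 11 multiparous Holstein-Friesian dairy cows (parity 4.7 on average, milk yield in the lactation before 6477 ± 354 kg). From day 2 after calving, the 5 cows of the mild group had free access to grass silage, received 8 kg of a concentrate with 21% crude protein a day and were milked 1 time daily. The daily ration of the 6 cows of the severe group was limited to 25 kg of silage with 4 kg of concentrate, and they were milked 3 times daily, which was meant to deepen the energy deficit of early lactation. The cows had been blocked and then assigned at random, and RNA of whole endometrium from each was measured on 1 Affymetrix bovine array.

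The values are log2 signals, so a difference of 1 corresponds to a 2-fold difference in signal. Differences are given as severe minus mild with the standard error of a limma fit, and adjusted p-values are limma's, corrected by the method of Benjamini and Hochberg across the whole array (24016 probe sets). No probe set of the array passed an adjusted p of 0.05, and the lowest was 0.177. All arrays had a median of 6.20, and the median difference over all probe sets was -0.0079. A signal is called dim below 5.52, where the faintest 40% of the array lies, since differences are compressed there. The number of arrays limits the precision. In whole tissue, fewer cells of a type and less RNA per cell cannot be told apart.

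Of the 8 adhesion genes, 7 had a higher mean in severe than in mild cows, where 47.8% of all probe sets did. The largest differences were those of the LFA-1 chains, 0.87 for ITGAL and 0.69 for ITGB2, followed by SELP at 0.65 and VCAM1 at 0.57. ITGAM alone had a lower mean, from a dim signal. At an unadjusted p under 0.05 there were 2 of 8 genes, ITGB2 and ITGAL, and both were higher in severe cows. The share of all probe sets at that level was 12.8%, made up of 6.97% higher and 5.88% lower in severe cows. It was 17.1% among probe sets that were not dim on average, as ITGB2 and ITGAL were not, and 6.48% among dim ones. None of the 8 passed an adjusted p of 0.05 (0% of all probe sets did), and in 0 of 8 were the groups free of overlap (1.07% of all probe sets). The 2 genes rested on individual cows. The number was 0 without mild 2 or without mild 4, 1 without mild 1, severe 5 or severe 6 and 4 without severe 1, when VCAM1 and ITGA4 joined them. The share of all probe sets moved too, to 10.3% without mild 2, 9.21% without mild 4 and 15.3% without severe 1. It was 11.5% without mild 1, 12% without severe 5 and 10.3% without severe 6. Without severe 2 the number was again 2, with the dim ITGAM in place of ITGAL, and the share of all probe sets was 9.3%.

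**Figure D1:**
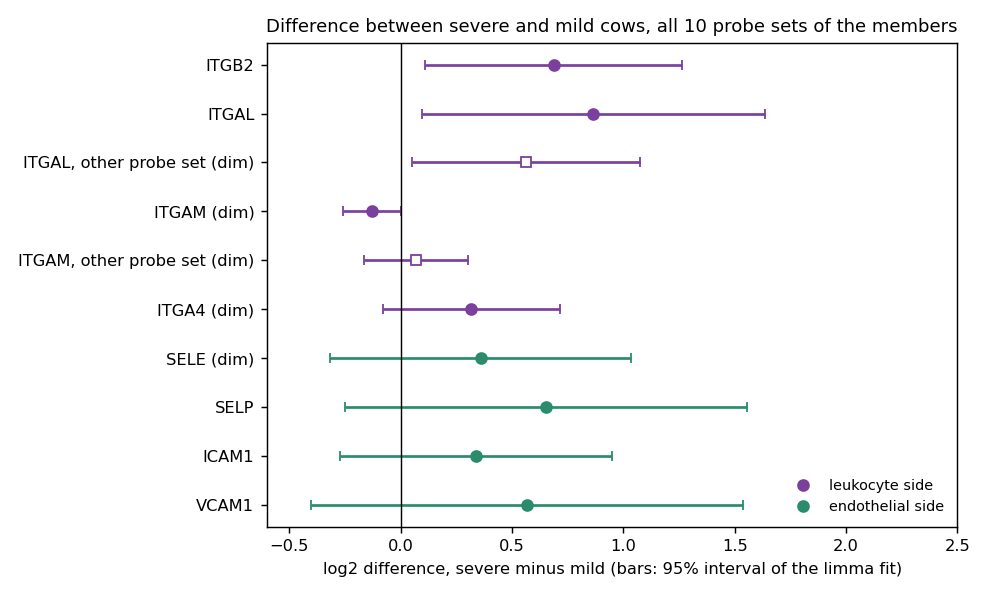
Log2 difference between the means of 6 severe and 5 mild cows for the 10 probe sets of the 8 adhesion genes, with the 95% interval of the limma fit as bars; filled points are the probe sets that stand for a gene and open squares the others. The intervals of ITGB2 and of both ITGAL probe sets lie above 0, and all others include 0.

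ITGB2 encodes CD18, the beta chain shared by LFA-1, Mac-1 and their relatives, and its inherited loss causes leukocyte adhesion deficiency in Holstein cattle. Its log2 signal in mild cows 1 to 5 was 7.49, 7.23, 7.50, 7.20 and 7.79, and in the severe cows it had a lowest value of 7.26, a median of 8.30 and a highest value of 8.96. Severe 2, 4, 5 and 6 lay above every mild cow, while severe 1 and severe 3 lay within the mild range. The group means were 7.44 ± 0.24 (SD, n = 5) and 8.13 ± 0.62 (SD, n = 6). The difference of 0.69 ± 0.26 (SE), a 1.61-fold higher signal, had a 95% interval of 0.11 to 1.26 and an adjusted p of 0.337.

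ITGAL encodes CD11a, the alpha chain of LFA-1, which is carried by most leukocytes. The mild cows had log2 signals of 6.10, 5.85, 6.23, 5.52 and 6.62, and the severe cows ran from 5.69 through a median of 7.01 to 7.89. The same severe cows, 2, 4, 5 and 6, lay above the mild range, severe 3 lay inside it and severe 1 was lower than all mild cows but mild 4. The means of 6.06 ± 0.41 (SD, n = 5) and 6.93 ± 0.80 (SD, n = 6) differed by 0.87 ± 0.35 (SE), 1.82-fold, with an adjusted p of 0.354. The other ITGAL probe set, which was dim on average, gave 0.56 ± 0.23 (SE) with an adjusted p of 0.357, and again 4 severe cows exceeded the highest mild cow.

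ITGAM encodes CD11b, the Mac-1 alpha chain that is abundant on neutrophils and macrophages. Both of its probe sets were dim on all 11 arrays. The one with the higher mean gave 3.45, 3.42, 3.33, 3.45 and 3.40 in the mild cows and 3.20 to 3.41 with a median of 3.27 in the severe cows. No severe cow exceeded the highest mild cow, although the ranges overlapped. The difference was -0.13 ± 0.06 (SE) with an adjusted p of 0.398, and the other probe set gave 0.07 ± 0.11 (SE) with an adjusted p of 0.821. The probe sets thus differed in sign within a range of signal near the floor of the array, where no fold is given.

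ITGA4 encodes CD49d, the alpha chain of VLA-4 on lymphocytes and monocytes, and was also dim on all 11 arrays. The mild signals were 3.49, 3.72, 3.74, 3.58 and 3.64, and the severe ones had a lowest value of 3.45, a median of 3.85 and a highest value of 4.66. Severe 2, 4, 5 and 6 were again above the mild range, severe 4 by the least. The difference of 0.32 ± 0.18 (SE) had an adjusted p of 0.482.

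**Figure D2:**
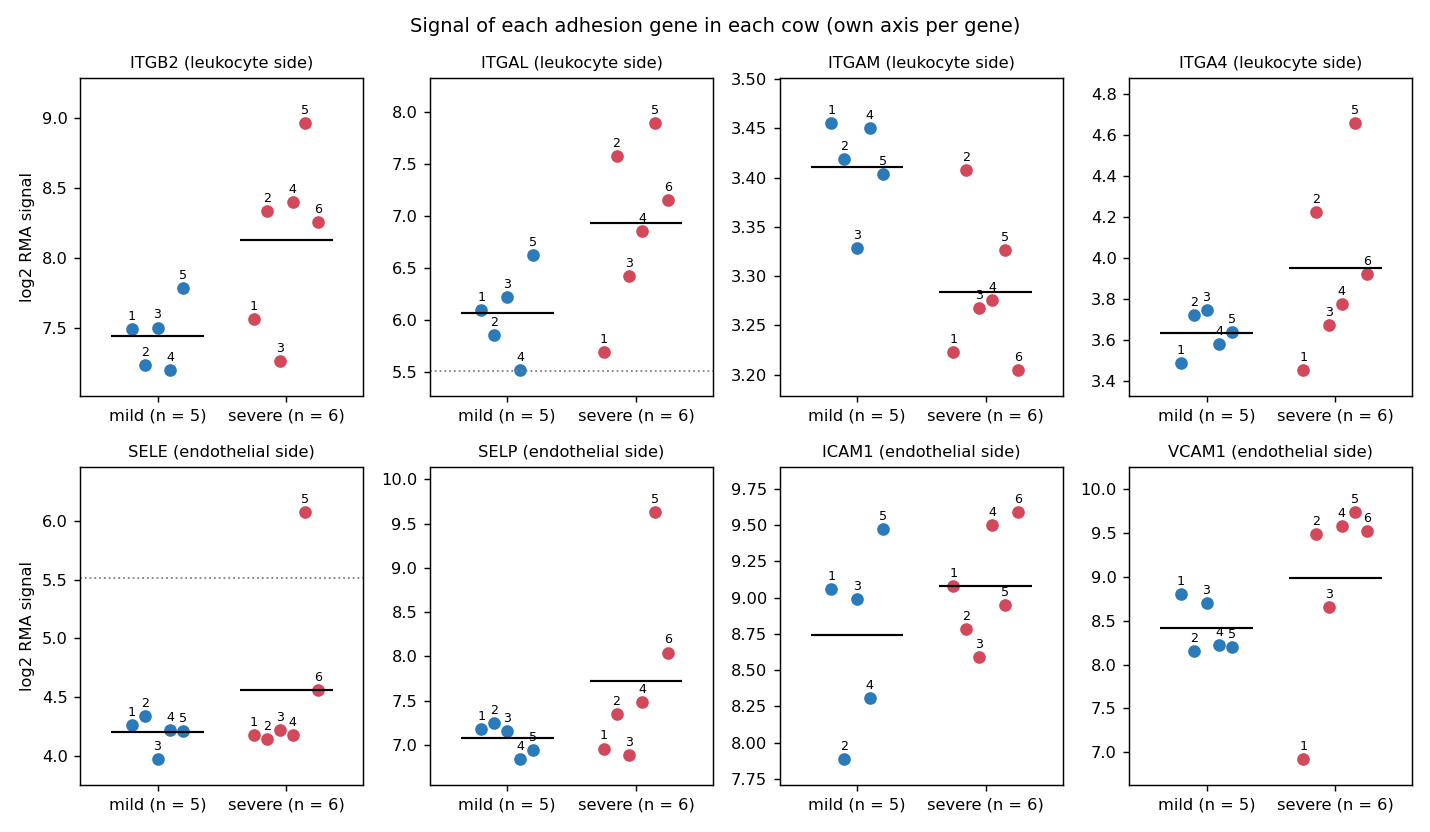
Log2 signal of each of the 8 measured adhesion genes in each cow, with the cow's number beside its point, horizontal lines at the group means, dotted lines at the limit for dim signals and a separate vertical axis for each gene. In ITGB2, ITGAL, ITGA4, SELP and VCAM1 the severe cows 2, 4, 5 and 6 lie above all 5 mild cows.

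On the endothelial side, VCAM1 encodes the ligand of VLA-4. Its mild signals were 8.80, 8.15, 8.71, 8.22 and 8.20, and the severe cows had a lowest value of 6.93, a median of 9.50 and a highest value of 9.74. The severe cows formed a tight upper set of severe 2, 4, 5 and 6 between 9.49 and 9.74, severe 3 lay in the mild range at 8.65, and severe 1 was the lowest of all 11 cows. The means were 8.42 ± 0.31 (SD, n = 5) and 8.98 ± 1.08 (SD, n = 6), a difference of 0.57 ± 0.44 (SE), 1.48-fold, with an adjusted p of 0.613. Severe 1 lowered this value, and without that cow the difference was 0.98 with an adjusted p of 0.110.

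SELP had mild signals of 7.19, 7.25, 7.16, 6.84 and 6.94, and severe signals with a lowest value of 6.89, a median of 7.42 and a highest value of 9.63. The highest was severe 5, followed by severe 6 at 8.04, and severe 2 and severe 4 stood just above the mild range. The difference was 0.65 ± 0.41 (SE), 1.57-fold, with an adjusted p of 0.526, and fell to 0.27 without severe 5. Platelets also carry this RNA. The 3 measured of 10 listed platelet markers had a mean score that ranged from -0.16 to 0.11 in mild and from -0.08 to 0.10 in severe cows, with 0 severe cows above the highest mild cow, and 2 of the 3, PF4 and ITGA2B, were dim.

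SELE was dim in 10 of 11 cows. Its mild signals were 4.26, 4.34, 3.97, 4.22 and 4.21, and the severe ones had a lowest value of 4.15, a median of 4.20 and a highest value of 6.08. Severe 5 was the only cow above the limit for dim signals, severe 6 at 4.56 was the other severe cow above the mild range, and the remaining severe cows overlapped with the mild ones. The difference was 0.36 ± 0.31 (SE) with an adjusted p of 0.648, and it was 0.06 without severe 5.

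ICAM1, the ligand of LFA-1 and Mac-1, like ITGAM and SELE, did not follow the cow pattern of ITGB2, ITGAL, ITGA4, SELP and VCAM1. The mild cows had 9.06, 7.89, 8.99, 8.30 and 9.47, and the severe cows ran from 8.59 through a median of 9.01 to 9.59. Most of the severe range lay inside the mild range, and just severe 4 and severe 6 exceeded mild 5. The means of 8.74 ± 0.64 (SD, n = 5) and 9.08 ± 0.40 (SD, n = 6) differed by 0.34 ± 0.28 (SE), 1.26-fold, with a 95% interval of -0.27 to 0.95 and an adjusted p of 0.633. The difference was 0.13 without mild 2 and 0.52 without mild 5.

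The spread was wider among severe than among mild cows in every measured adhesion gene but ICAM1, a difference that was not tested. The share of all probe sets with a wider spread in severe cows was not counted, so this is not shown to be particular to these genes. The SD in severe cows was 5.89 times that in mild cows for SELP, 5.50 times for SELE, 4.12 times for ITGA4, 3.46 times for VCAM1, 2.57 times for ITGB2 and 1.94 times for ITGAL, whereas for ICAM1 it was 0.62 times. For the dim ITGAM it was 1.46 times, and 0.95 times for its other probe set. In 5 of 8 genes (ITGB2, ITGAL, ITGA4, SELP and VCAM1) exactly severe 2, 4, 5 and 6 lay above the highest mild cow. Of all probe sets 2.9% had this pattern, which was picked out after the values had been seen. Counted by cow, severe 6 exceeded the highest mild cow in 7 genes, severe 4 and severe 5 in 6 each and severe 2 in 5, while severe 1 and severe 3 did so in 0.

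The leukocyte and endothelial sides were then set against each other. The median difference was 0.50 over the 4 leukocyte genes and 0.46 over the 4 endothelial genes. For each cow, the mean over a side of the log2 signal minus the gene's mean over all cows was taken. The leukocyte side averaged -0.24 ± 0.16 (SD, n = 5) in mild and 0.20 ± 0.45 (SD, n = 6) in severe cows, and the endothelial side -0.26 ± 0.20 and 0.22 ± 0.64. The leukocyte side minus the endothelial side was 0.02 ± 0.14 in mild and -0.02 ± 0.31 in severe cows, so the group means differed by less than the spread within either group. No test is given for these means, since the genes were chosen with results of these arrays known. Without the dim genes ITGAM, ITGA4 and SELE, the leukocyte side was 0.78 and the endothelial side 0.52 higher in severe cows, a gap of 0.26 beside an SD of 0.22 in mild and 0.27 in severe cows.

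**Figure D3:**
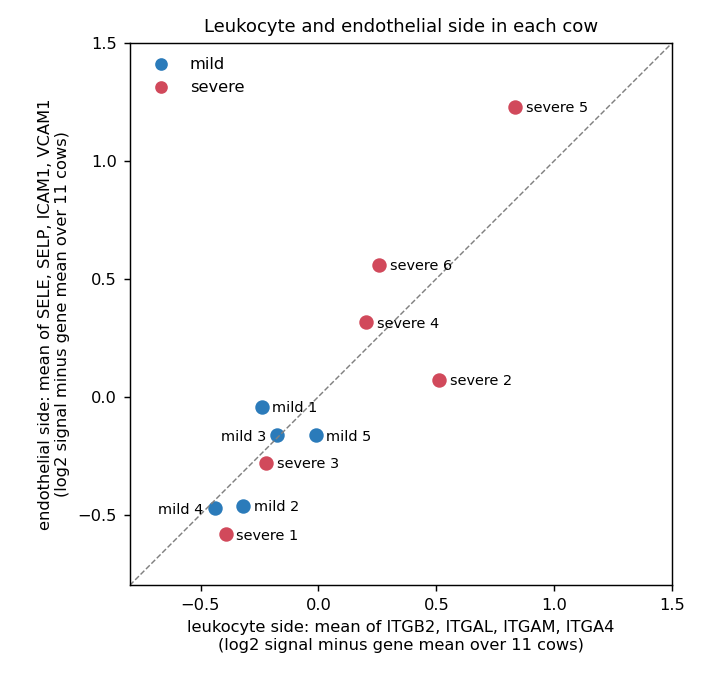
Mean of the 4 endothelial genes against mean of the 4 leukocyte genes in each cow, both as log2 signal minus the gene's mean over 11 cows, with the dashed line marking equal values. Severe 5 lies highest on both axes at 0.83 and 1.23, and severe 1 and severe 3 lie among the mild cows.

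Partners were also compared directly, by the difference between their log2 signals in each cow. Of the 6 pairs measured, none had a group difference that passed an adjusted p of 0.05 in an exact two-sided permutation over all ways of dividing the cows into 5 and 6, with adjustment over the 6 pairs and a smallest possible p of 0.00216. ITGAL minus ITGB2, the LFA-1 chains, differed by 0.18 between severe and mild cows (adjusted exact permutation p = 0.478). ITGAL minus ICAM1, receptor and ligand, differed by 0.53 (adjusted exact permutation p = 0.390) and ITGA4 minus VCAM1 by -0.25 (adjusted exact permutation p = 0.567). SELE minus SELP, the vascular selectins, differed by -0.29 (adjusted exact permutation p = 0.385). The pairs with ITGAM rest on its floor signal. They gave -0.82 against ITGB2 (adjusted exact permutation p = 0.156) and -0.47 against ICAM1 (adjusted exact permutation p = 0.385).

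Markers of leukocytes moved with the adhesion genes. Of 11 measured of 12 listed pan-leukocyte markers, 11 had a higher mean in severe cows and 9 were at an unadjusted p under 0.05, with a median difference of 0.82. Their score, formed for each cow like that of the sides, ranged from -0.97 to -0.17 in mild and from -0.47 to 1.35 in severe cows. The severe cows above every mild cow in this score were again 2, 4, 5 and 6. With it as a covariate in the limma fit, the difference turned to -0.075 for ITGB2, -0.10 for ITGAL, -0.10 for ITGA4, -0.17 for SELE, -0.30 for SELP, -0.071 for ICAM1 and -0.52 for VCAM1. In that fit 0 of 8 genes were at an unadjusted p under 0.05, where 3.42% of all probe sets were. The score itself differed by 0.95 between the groups, so the fit cannot separate leukocyte number from group. The part of leukocyte number in these differences was not tested.

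The markers of single leukocyte classes differed between the groups by unlike amounts. The 6 measured of 12 listed neutrophil markers all had groups without overlap (1.07% of all probe sets did) and a median difference of 2.85. Their score ran from -2.13 to -0.71 in mild and from -0.12 to 2.66 in severe cows. Severe 1 and severe 3, which did not exceed the mild cows in any of the 8 adhesion genes, did so in the neutrophil score. This follows from the lack of overlap in each of its markers and adds nothing to it. The score differed by 0.85 for macrophage markers (8 of 11 measured), 0.53 for T and NK cell markers (17 of 18) and 1.45 for B and plasma cell markers (6 of 9), each with 4 severe cows above the highest mild cow.

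Endothelial markers gave another picture. Of 14 measured of 16 listed endothelial markers, 9 had a higher and 5 a lower mean in severe cows, 0 were higher and 1, the dim KDR, was lower at an unadjusted p under 0.05, and the median difference was 0.10. The score ranged from -0.25 to 0.11 in mild and from -0.14 to 0.19 in severe cows. The differences of single markers ran from -0.29 ± 0.45 (SE) for VWF to 0.36 ± 0.22 (SE) for CLDN5, with PECAM1 at 0.21 ± 0.19 (SE). Those of SELP and VCAM1 were 0.65 and 0.57. With this score as a covariate in the limma fit, the difference was 0.56 for SELP and 0.39 for VCAM1. The score itself differed by 0.07 between the groups, so an unchanged sign in that fit cannot decide the part of endothelial content. Whether endothelial content had a part in the values of SELP and VCAM1 was not tested.

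**Figure D4:**
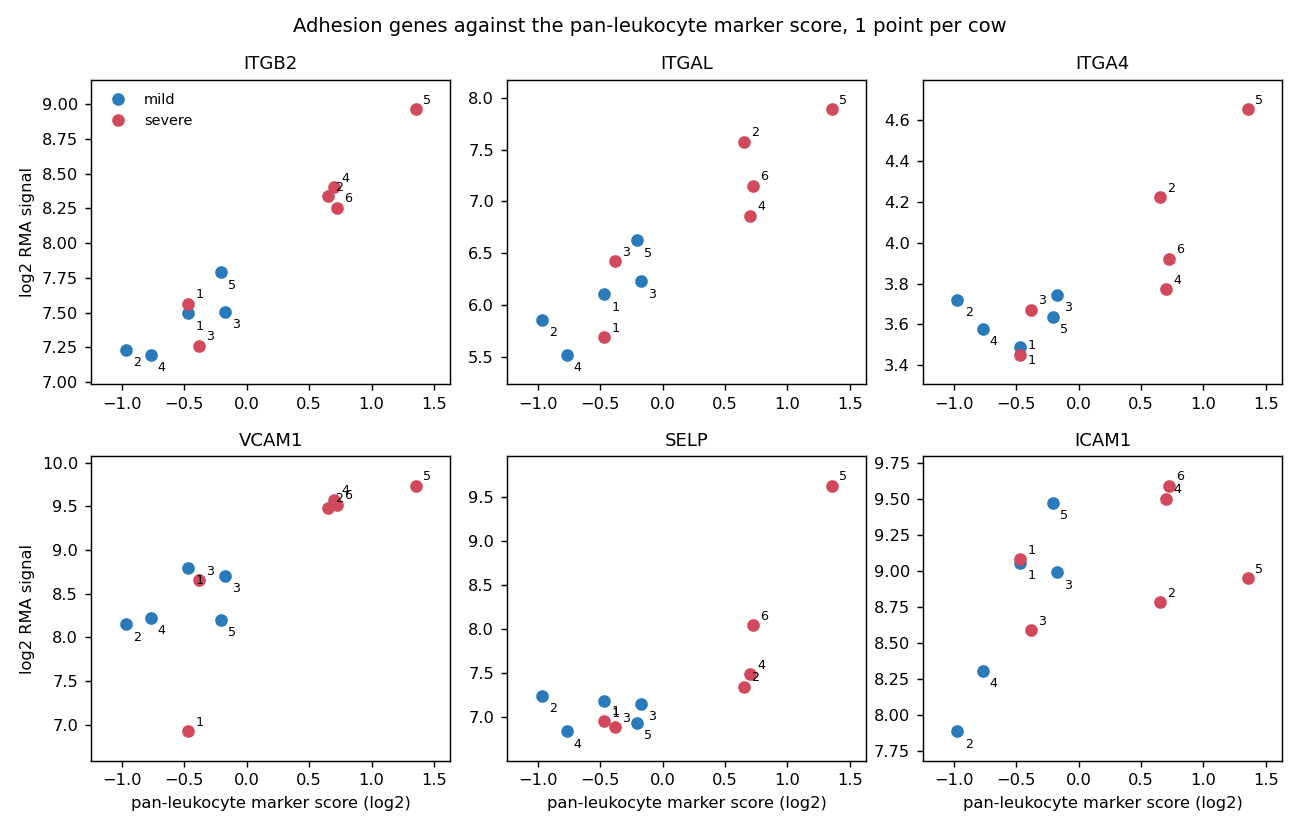
Log2 signal of 6 adhesion genes against the pan-leukocyte marker score (mean over 11 marker genes of log2 signal minus the gene's mean), with 1 point per cow, the cow's number beside it and a separate vertical axis for each gene. The cows form a lower set of 7 and an upper set of 4 (severe 2, 4, 5 and 6), with no cow between scores of -0.17 and 0.65.

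Relations of the 8 genes to 4 marker scores (pan-leukocyte, neutrophil, macrophage and endothelial) were examined across the 11 cows after each value had been centred on its group mean, 32 relations in all. By exact permutation within groups, 4 passed an adjusted p of 0.05 for Pearson's r, namely those of ITGB2, ITGAL and VCAM1 with the pan-leukocyte score and of ITGB2 with the macrophage score. The number was 0 without severe 1 or without severe 3, 1 without severe 5 and 2 without severe 6. The cows fell into separate sets on the pan-leukocyte score, with 7 cows from -0.97 to -0.17 and 4 from 0.65 to 1.35, so no r across all cows is given for it.

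Within the lower 7 cows (5 mild and 2 severe), values were not centred on their group mean and the permutation ran over all 7 cows, so group was not removed. There, r with the pan-leukocyte score was 0.73 for ITGB2 (rho = 0.71, exact permutation p = 0.0690, adjusted p over 8 genes = 0.152). It was 0.71 for ITGAL (rho = 0.71, exact permutation p = 0.0724, adjusted p = 0.152) and 0.19 for VCAM1 (rho = 0.29, exact permutation p = 0.673, adjusted p = 0.781). ICAM1 had the highest r of the 8 genes there, 0.87 (rho = 0.61, exact permutation p = 0.00893, adjusted p = 0.0714). SELE, dim in all of these cows, ran the other way, with r = -0.70 (rho = -0.75, exact permutation p = 0.0760, adjusted p = 0.152). None of the 8 passed the adjustment in these cows.

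For ITGB2 and the macrophage score, r was 0.90 (adjusted exact permutation p = 0.0169) and rho was 0.93 (adjusted exact permutation p = 0.0119) over 11 cows. The value of r was 0.94 without severe 4 and severe 5, the cows farthest from the median score, 0.86 within the mild and 0.92 within the severe cows. It was 0.83 without severe 3 (adjusted exact permutation p = 0.103) and 0.88 without severe 1 (adjusted exact permutation p = 0.0637). Whether this relation is distinct from that with the pan-leukocyte score was not tested. With the neutrophil score, r was 0.55 for ITGB2 (rho = 0.46, adjusted exact permutation p = 0.359) and 0.65 for VCAM1 (rho = 0.69, adjusted exact permutation p = 0.175), and none of the 8 genes passed. None passed with the endothelial score either. ITGAL was highest there, with r = 0.65 (rho = 0.69, adjusted exact permutation p = 0.121), while ICAM1 had 0.54 (rho = 0.68, adjusted exact permutation p = 0.310), which became -0.12 without mild 2 and mild 4.

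Other genes of the adhesion cascade were described from 4 lists with 54 measured genes. Of these, 13 were at an unadjusted p under 0.05, 12 of them higher in severe cows. The share was 12.8% of all probe sets and 17.1% of those not dim on average. None of the 54 genes passed an adjusted p of 0.05. Integrin activation and linkage, the proteins that switch integrins to their binding form and tie them to the cytoskeleton, had 12 of 13 genes with a higher mean, 7 of them at an unadjusted p under 0.05, and a median difference of 0.45. FYB1, an adaptor of integrin signalling in T cells, differed by 0.82 ± 0.23 (SE, adjusted p = 0.294) and RASGRP2, the exchange factor that activates Rap1 in platelets and leukocytes, by 0.45 ± 0.13 (SE, adjusted p = 0.301). Both signals were dim, and RASGRP2 was the only one of these 54 genes whose groups did not overlap. APBB1IP, which links Rap1 to talin, differed by 0.66 ± 0.23 (SE, adjusted p = 0.320) and LCP2, an adaptor of immune receptor signalling, by 0.84 ± 0.31 (SE, adjusted p = 0.322). Talin itself, TLN1, differed by 0.04 ± 0.13 (SE).

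Among other integrin chains 9 of 14 had a higher mean and 2 were at an unadjusted p under 0.05, both higher, with a median difference of 0.08. These were ITGAD, the CD11d chain that also pairs with ITGB2, at 1.08 ± 0.34 (SE, adjusted p = 0.307), and ITGB6, an epithelial chain, at 0.52 ± 0.23 (SE, adjusted p = 0.377). ITGAD went from 5.62 ± 0.49 (SD, n = 5) to 6.70 ± 0.72 (SD, n = 6), and 5 of the severe animals exceeded all mild ones. ITGB7, a beta partner of ITGA4, differed by 0.56 ± 0.28 (SE, adjusted p = 0.435). ITGB1, the other beta partner of ITGA4 and a chain of most tissue cells, differed by 0.02 ± 0.10 (SE), and ITGB3 by -0.28 ± 0.13 (SE, adjusted p = 0.396).

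Selectin ligands, the enzymes that make them and the leukocyte selectin had 8 of 13 genes with a higher mean and a median difference of 0.14. The 2 genes at an unadjusted p under 0.05 were SELPLG, the P-selectin ligand of leukocytes, at 0.44 ± 0.18 (SE, adjusted p = 0.355), and ST3GAL4, a sialyltransferase that takes part in making selectin ligands, at 0.41 ± 0.17 (SE, adjusted p = 0.359). TPST2, which sulfates tyrosines such as those of the P-selectin ligand, differed by 0.48 ± 0.22 (SE, adjusted p = 0.398) and the sialyltransferase ST3GAL6 by 0.35 ± 0.17 (SE, adjusted p = 0.419).

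Genes of transendothelial migration and other vascular ligands had 11 of 14 with a higher mean and a median difference of 0.13, and 2 genes were at an unadjusted p under 0.05 in opposite directions. CD47, a widely made partner of integrins, differed by 0.51 ± 0.22 (SE, adjusted p = 0.373). AOC3, the vascular adhesion protein VAP-1, which smooth muscle also makes, differed by -0.79 ± 0.34 (SE, adjusted p = 0.373). The endothelial cadherin CDH5 differed by 0.24 ± 0.11 (SE, adjusted p = 0.415) and the venular chemokine receptor ACKR1 by 0.52 ± 0.28 (SE, adjusted p = 0.454).

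**Figure D5:**
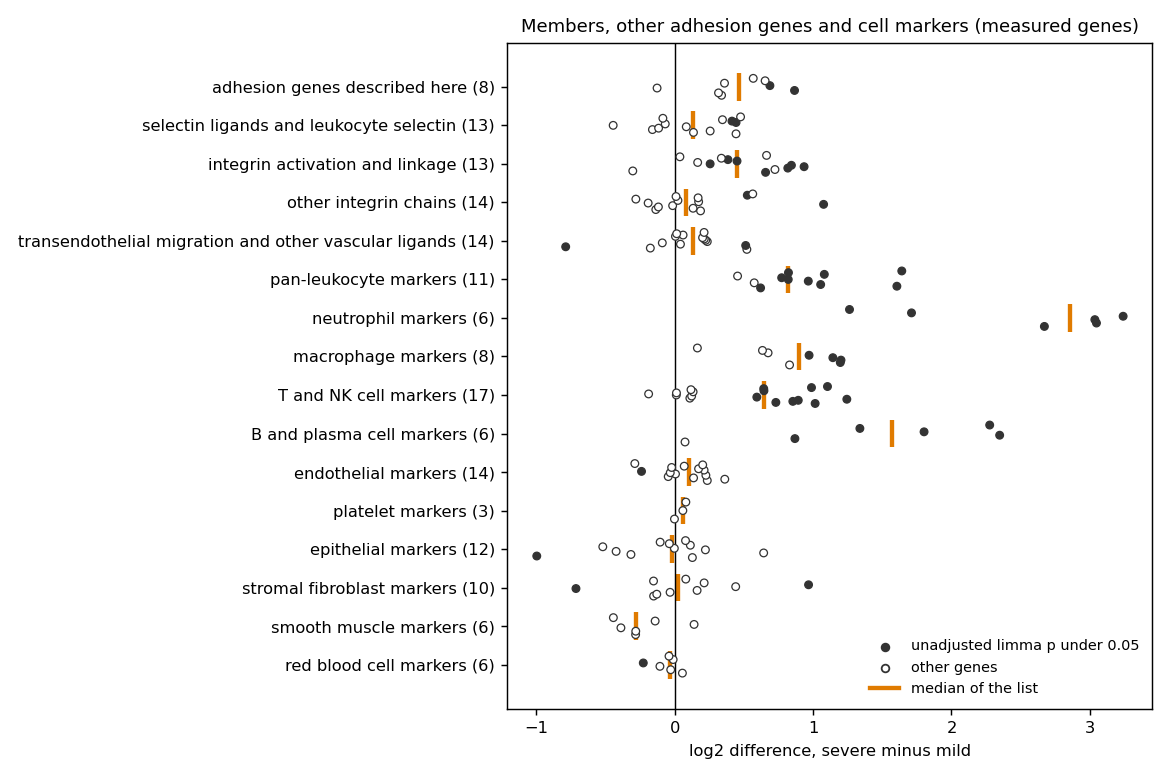
Log2 difference between severe and mild cows for each measured gene of the 8 adhesion genes, the 4 lists of related genes and the marker lists, with filled points for an unadjusted limma p under 0.05 and orange lines at the list medians. The adhesion genes have a median of 0.46, integrin activation 0.45, pan-leukocyte markers 0.82, neutrophil markers 2.85 and endothelial markers 0.10.

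For each adhesion gene, the genes most like it were taken by Pearson's r of group-centred log2 signals over the 11 cows, among 7135 genes that were not dim on average. Each r is the highest of many, so it is raised by the selection, and none was tested. Even the floor signal of ITGAM reached an r of 0.91. The separate sets of cows on the pan-leukocyte score can also raise r over all cows. ITGB2 was most like VAV1, an exchange factor of blood cells (r = 0.99), followed by the MHC class II genes BOLA-DRA (r = 0.96) and BOLA-DRB3 (r = 0.96). ITGAL was most like LOC510988 (r = 0.97), STK17A (r = 0.96) and LOC530031 (r = 0.95), and the dim ITGA4 most like RAB27A (r = 0.96), GRK6 (r = 0.95) and RSPRY1 (r = 0.93). Without severe 5, r for these genes ran from 0.82 for RSPRY1 to 0.99 for VAV1.

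On the endothelial side, VCAM1 was most like MFSD13A (r = 0.96), TAPBP, a chaperone of MHC class I loading (r = 0.95), and PIH1D1 (r = 0.93). ICAM1 was most like IGFBP3 (r = 0.96), FIS1 (r = 0.96) and PLXDC2 (r = 0.95). SELP was most like TRAF1 (r = 0.95), CXCR5 (r = 0.95) and SEC11C (r = 0.94), with r of 0.90, 0.81 and 0.78 without severe 5. SELE was most like IL1RAP (r = 0.97), IL33 (r = 0.96) and ABHD6 (r = 0.94), which became 0.58, 0.29 and 0.28 without severe 5, so these rest on that cow. The dim ITGAM was most like ZNF317 (r = 0.91), TCP11L1 (r = 0.90) and HEATR1 (r = 0.89).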

How the data were processed

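The deposited values are log2 signals that the authors made with RMA, per the submitters' processing notes, from total RNA extracted with Trizol, per the labels' protocols; the RMA version is not given in the sources used here. Of 24128 probe sets, 112 controls were left out. Gene names came from the platform annotation, dated 2016, which gave 13292 probe sets 1 symbol, 86 several and listed none for 10638. Severe and mild cows were compared with the two-sided moderated test of limma 3.58.1, run in R 4.3.3, with Benjamini-Hochberg adjustment across 24016 probe sets. The procedure was tested on simulated data. Other values were computed in Python 3.11.15.

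The genes and lists were chosen with earlier results of these data known. Named genes are the 8 adhesion genes, up to 4 genes of each related list by smallest unadjusted p, and for each adhesion gene the 3 most like it. PECAM1, VWF, CLDN5, KDR, PF4, ITGA2B, TLN1 and ITGB1 were added after their values were seen. Alternatives were filters, normalizations, variance models, probe set means, covariates and cows left out; the relations within 7 cows were added after seeing the data. The mean 3' minus 5' difference of control transcripts was 0.56 ± 0.07 (SD, n = 5) in mild and 0.59 ± 0.14 (SD, n = 6) in severe cows. Replicate numbers only name cows. No batch or scan date is given in the sources used here.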

Additional observations from a re-analysis of the deposited data

Results flagged for a closer look

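SELE in the severe cow 5 stood apart from the rest of its group. Its log2 signal was 6.08, the next severe cow had 4.56, and the gap took 0.786 of the group's whole range, above the critical value of 0.625 for 6 samples. Of 16 combinations of gene and group examined this was the only one, and chance gives about 1 in 20.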

How the results depend on the processing

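None of the 8 adhesion genes passed an adjusted p of 0.05 under any alternative tried, and the lowest adjusted p was 0.110 for VCAM1 and 0.143 for ITGAL, both without severe 1, and 0.175 for ITGB2 without severe 3. The number at an unadjusted p under 0.05, 2 in the fit reported, ranged from 0 to 4 with single cows left out and was 0 with mild 2 and severe 5 both left out and 0 with the pan-leukocyte score as a covariate. The share of all probe sets at that level ranged from 9.21% to 15.8% with single cows left out. It was 10.8% with mild 2 and severe 5 both left out. The number of genes whose groups did not overlap was 1 in place of 0 after a second quantile normalization and ranged from 0 to 1 with single cows left out, the 1 without severe 2 being ITGAM. The share of all probe sets without overlap was not counted under these alternatives, so these counts are not shown to be particular to the adhesion genes. With the pan-leukocyte score as a covariate, the median difference was -0.10 for the leukocyte and -0.24 for the endothelial side, and 7 genes turned sign, with ITGB2 at -0.075, ITGAL at -0.10, ITGA4 at -0.10, SELE at -0.17, SELP at -0.30, ICAM1 at -0.071 and VCAM1 at -0.52. That fit had 3.42% of all probe sets at an unadjusted p under 0.05. These 7 were the only reversals among 165 values of single genes under alternatives, of which 142 kept their direction and their side of an unadjusted p of 0.05. Relations to marker scores that passed, 4 as reported, ranged from 0 to 4 with single cows left out, and were 1 with mild 2 and severe 5 both left out and 0 within the 7 cows of lower pan-leukocyte score, where 8 were tested. With each gene averaged across its probe sets there were 5, the added one being ITGAM with the macrophage score (r = 0.80, adjusted exact permutation p = 0.0384, against r = 0.29 for its probe set of highest mean). Of the 54 related genes, 7 in place of 13 were at an unadjusted p under 0.05 with mild 2 and severe 5 both left out, beside 10.8% of all probe sets. Causes were not tested. No pair contrast passed under any of its 14 alternatives. Dim signals limit ITGAM, ITGA4 and SELE. No paired analysis was possible because replicate numbers follow the sample order and no source used here says which block an animal was in.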
